A study of Mus musculus with 6 samples.

Results

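Transcripts of 9 genes of the PI3K, AKT and mTOR pathway, Pik3cd, Pik3cg, Akt1, Akt2, Tsc1, Tsc2, Mtor, Rptor and Rictor, were followed in splenic NK cells with intact or deleted Mettl3, the gene of the m6A methyltransferase METTL3. The genes were taken by name, and all 9 were found among the 14490 genes of the table. In METTL3-deficient cells the transcripts of both leukocyte PI3K catalytic subunits and of Akt1 were higher, and those of Akt2 and Tsc2 were lower. Transcripts of Mtor, Rptor, Rictor and Tsc1 did not pass the threshold. The call of Tsc2 held in only 10 of 15 alternative settings, whereas that of Akt2 held in all 15. Changes were small: the largest, in Pik3cd, was 29.7% (95% confidence interval 24.4 to 35.2%).

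NK cells were sorted by flow cytometry from spleens of C57BL/6 mice, with 3 samples per genotype. WT mice were Mettl3fl/fl and so carried floxed but intact Mettl3 alleles. The cKO mice were Ncr1Cre-Mettl3fl/fl, with the same floxed alleles and Cre driven from the locus of Ncr1, which encodes the NK cell receptor NKp46. By their label WT mice had no Cre, so an effect of Cre or of the altered Ncr1 locus and an effect of Mettl3 deletion cannot be told apart. The labels name no treatment or age and do not say whether each sample came from a separate mouse, and p-values then measure only the spread between these samples, which may be technical.

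Class I PI3Ks phosphorylate the membrane lipid PIP2 to PIP3, and PIP3 brings the kinase AKT to the membrane, where PDK1 and mTORC2 phosphorylate it. Active AKT phosphorylates TSC2 and so releases RHEB from inhibition by the TSC1 and TSC2 complex, and RHEB activates mTORC1, which drives protein synthesis, lipid synthesis and glycolysis. The kinase mTOR is shared by both complexes, whereas raptor (Rptor) defines mTORC1 and rictor (Rictor) defines mTORC2. In NK cells this pathway carries signals of IL-15 and of activating receptors into growth, metabolism and effector function, and AKT also holds FOXO transcription factors out of the nucleus.

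METTL3 methylates adenosines within a short motif, often read as GGACT, and m6A is known to gather near stop codons. m6A itself was not analysed here. On the sense strand of the representative transcripts (GRCm38, GENCODE M21), each of the 9 genes holds GGACT at least 5 times, at 1.07 to 2.23 matches per kb. Among 11813 listed protein-coding genes, 91.2% hold it at least once. The median over all of them is 1.05 matches per kb, with an interquartile range of 0.63 to 1.54. Of the 9 transcripts, 8 are longer than the upper quartile of those genes, 4412 bases, so their numbers of matches are not comparable with that share. The windows below surround the match nearest to the stop codon in the 4 genes whose change was called under every setting tried, written 5′ to 3′ along the transcript with GGACT in capitals.
Pik3cd, coding sequence, chr4:149650764-149651775, minus strand, spanning an intron: agtatctcaaGGACTctctggcact
Pik3cg, coding sequence, chr12:32176634-32176658, minus strand: gacaaaggatGGACTgtgcagttta
Akt1, 3′ UTR, chr12:112654396-112654420, minus strand: aaactattaaGGACTgacgcgacca
Akt2, coding sequence, chr7:27636440-27636464, plus strand: cctgctggctGGACTgctgaagaag
The match lies 66 bases upstream of the stop codon in Pik3cg, 134 upstream in Pik3cd, 295 upstream in Akt2 and 292 downstream in Akt1. Genes that were higher and the gene that was lower in cKO thus all carry the motif, and the same holds for Mtor and Rptor, which were called under no setting. A match is a description of the sequence and not a methylated site.

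Values are normalized counts, the authors' read counts of a gene divided by the sample's size factor, and 55965515 to 71464042 reads per sample fell on the listed genes. Mettl3 was lower in every cKO sample (297 to 405) than in every WT sample (1192 to 1303), a log2 fold change of -1.92, with an adjusted p of 2.32e-14. Where 3 values of a genotype are given, they stand in the order of samples 1, 2 and 3. Genotypes were compared by limma on log2(normalized count + 1) over all genes, with Benjamini-Hochberg adjustment, and a gene was called at an adjusted p under 0.05. NK cell markers were abundant in every sample, with 9 genes summing to 8938 to 9300 CPM in WT and 8575 to 8864 CPM in cKO, lower in every cKO sample. With size factors, 1 of them rose and 5 fell. With equal totals 2 rose and 4 fell, and with a correction for GC content and length 1 rose and 4 fell. B-cell markers summed to 9.83 to 11.1 CPM in WT and 16.2 to 16.7 CPM in cKO, and 5 of 6 rose. T-cell markers summed to 17.3 to 17.8 CPM in WT and 12.9 to 14.2 CPM in cKO, where 1 of 5 fell, and Cd8b1 was not in the table. When samples were scaled to equal totals, 1 T-cell marker rose and 1 fell, as at an unadjusted p under 0.05 by limma. Myeloid markers summed to 708 to 748 CPM and 778 to 792 CPM, of which Itgax, which NK cells also express, gave 644 CPM on average. Of 5 myeloid markers, 3 rose and 1 fell. With equal totals 4 rose and 1 fell, and with the correction for GC content and length 2 rose and 1 fell. None of 5 erythroid markers (10.7 to 13.1 CPM) and none of 4 type 1 innate lymphoid cell markers (13.4 to 16.9 CPM) was called by limma or limma-voom, and at an unadjusted p under 0.05 limma had 1 and 0, the erythroid gene lower in cKO. In these bulk samples, fewer cells of a type and less RNA per cell cannot be told apart.

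Of the 9 pathway genes, 5 were called, 3 higher and 2 lower in cKO, whereas 36.6% of all genes were called, 17.8% higher and 18.8% lower. Among the 3704 genes at least as abundant as the lowest of the 9, 56.8% were called, so the count of 5 in 9 is close to what genes of this abundance showed. Groups did not overlap for 6 of the 9 genes, 4 of them higher and 2 lower in cKO, beside 45.7% of all genes without overlap. The median size of change was 0.11 on the log2 scale for the 9 genes and 0.17 for all genes, and only Pik3cd and Pik3cg changed by more than the median gene. The share without overlap and the size of change were not matched for abundance. The scarcest of the 9, Tsc1, had a higher mean count than 74.4% of all genes. With 3 samples per genotype, the smallest two-sided p of an exact permutation test is 0.1, and each of the 6 genes without overlap reached it.

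Pik3cd encodes p110δ, the class I catalytic subunit that predominates in lymphocytes and couples to receptors through tyrosine phosphorylation. In GRCm38, as for all positions here, the gene lies at chr4:149649168-149702571 (minus strand). Pik3cd reached 38612, 37626 and 37308 normalized counts in WT compared with 48237, 49650 and 49343 in cKO. All cKO samples were well above all WT samples, and the gap between the groups was many times the spread within them. On average WT had 37849 ± 680 and cKO 49077 ± 743 normalized counts (SD, n = 3 each). Pik3cd rose by 0.37 on the log2 scale (SE 0.0291), with an adjusted p of 8.71e-11 by limma. Its change was larger than that of 80.1% of all genes, scarce ones included.

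B cells also express Pik3cd strongly, and B-cell markers moved in the same direction. Pik3cd went from 564 to 579 CPM in WT to 753 to 776 CPM in cKO, a mean difference of 195 CPM, while the 6 B-cell markers together gained 5.97 CPM. The part of B cells in the Pik3cd difference was not tested.

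Pik3cg encodes p110γ, the class I catalytic subunit that acts downstream of chemokine and other G-protein-coupled receptors. It lies at chr12:32173473-32208659 (minus strand). The WT values of Pik3cg were 3683, 3594 and 3645 normalized counts, and the cKO values were 4164, 4277 and 4291. The cKO samples again lay above all WT samples, with little spread in either group. With means of 3641 ± 44.7 and 4244 ± 69.9 (SD, n = 3 each), Pik3cg rose by 0.22 on the log2 scale (SE 0.0395; adjusted p 6.73e-05, limma), which is 16.6%.

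**Figure D1:**
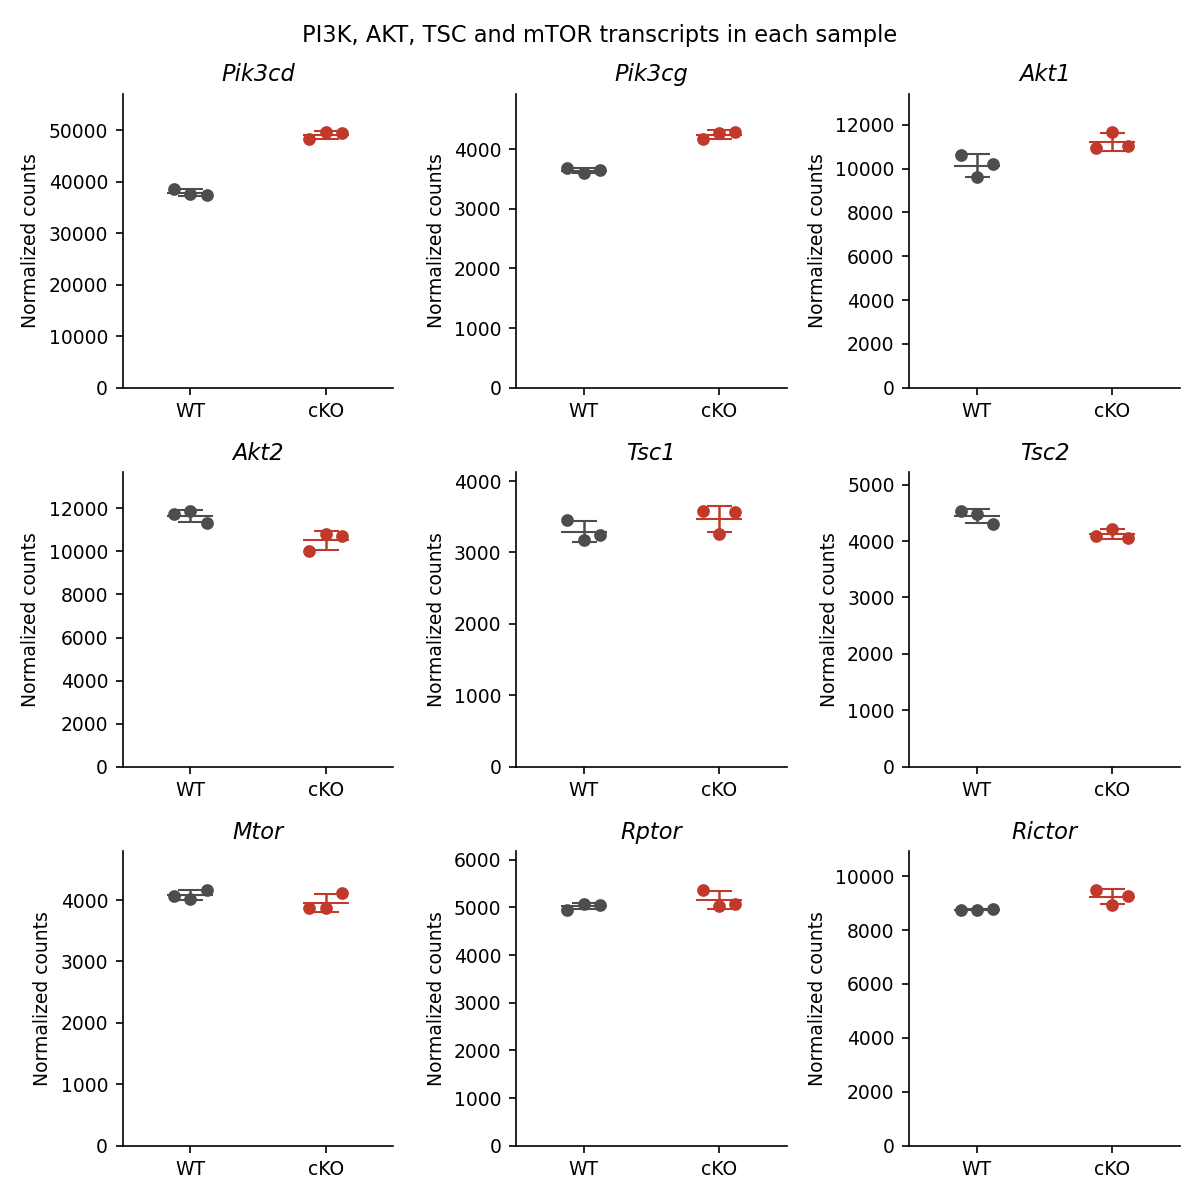
Normalized counts of the 9 genes in each sample, with 3 WT and 3 cKO samples per panel, each axis starting at 0. Points are samples in the order 1 to 3, wide bars are means and whiskers are SD. Pik3cd, Pik3cg, Akt1 and Rictor are higher in all cKO than in all WT samples, Akt2 and Tsc2 are lower, and Tsc1, Mtor and Rptor overlap.

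Akt1 and Akt2 encode the main AKT kinases of lymphocytes, close paralogs with overlapping substrates. Akt1 lies at chr12:112653821-112674884 (minus strand) and Akt2 at chr7:27591552-27640826 (plus strand). WT samples gave 10601, 9596 and 10205 normalized counts for Akt1, against 10941, 11673 and 11012 in cKO. The lowest cKO sample was only slightly above the highest WT sample, and the groups did not overlap. Akt1 rose by 0.15 on the log2 scale (SE 0.0375; adjusted p 0.00297, limma), from 10134 ± 506 to 11209 ± 403 (SD, n = 3 each).

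Akt2 reached 11717, 11884 and 11324 normalized counts in WT compared with 10024, 10815 and 10699 in cKO. Here the order was turned, with every cKO sample under every WT sample. The means were 11642 ± 287 and 10513 ± 427 (SD, n = 3 each), and Akt2 fell by 0.15 on the log2 scale (SE 0.0351; adjusted p 0.00150, limma). Akt1 thus gained 10.6% (95% confidence interval 4.89 to 16.7%) and Akt2 changed by -9.73% (-14.1 to -5.09%).

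In normalized counts on the authors' size factors, the opposite changes of the paralogs left their sum close to where it was. Akt1 and Akt2 together had 21776 ± 470 normalized counts in WT and 21721 ± 761 in cKO (SD, n = 3 each), a difference of -0.25% with an exact two-sided permutation p of 1. This sum was chosen after the values were seen, and it depends on the unit and the scaling. It weighs Akt2 (7131 bases of merged exons) more than Akt1 (4098 bases). Per kb of merged exons, mean Akt1 went from 118 in WT to 136 in cKO, and mean Akt2 from 77.7 to 73.4. With equal totals, Akt1 changed by 0.20 and Akt2 by -0.098 on the log2 scale. The sum was not tested per length or with equal totals. The log2 ratio of Akt1 to Akt2 within a sample, which no scaling of samples can change, was -0.14, -0.31 and -0.15 for WT and 0.13, 0.11 and 0.042 for cKO. Akt2 had more normalized counts than Akt1 in every WT sample, and Akt1 had more in every cKO sample. Per kb of merged exons, Akt1 was the higher in both genotypes, at a mean of 1.51 times Akt2 in WT and 1.86 times in cKO. The mean ratio differed by 0.29 on the log2 scale, with an exact permutation p of 0.1, the smallest the design allows.

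TSC1 and TSC2 form the complex that keeps RHEB inactive, in which TSC2 carries the GTPase-activating domain and TSC1 stabilizes it. Tsc1 lies at chr2:28641228-28691167 (plus strand). The WT values of Tsc1 were 3454, 3171 and 3249 normalized counts, and the cKO values were 3583, 3261 and 3561. The cKO sample 2 fell within the WT range, and the log2 difference of 0.075 (95% confidence interval -0.020 to 0.17) did not pass the test, with an adjusted p of 0.221 by limma. It was 0.049 without WT sample 2, 0.12 without cKO sample 2 and 0.039 with the correction for GC content and length, none of them called, and 0.12 with equal totals, which was called (adjusted p 0.0419).

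Tsc2 lies at chr17:24595816-24632630 (minus strand). WT samples gave 4534, 4484 and 4300 normalized counts for Tsc2, against 4094, 4219 and 4061 in cKO. All cKO samples were under all WT samples, though cKO sample 2 came near WT sample 3. Tsc2 fell by 0.11 on the log2 scale (SE 0.0397; adjusted p 0.0379, limma), from 4439 ± 123 to 4125 ± 83.3 (SD, n = 3 each). This call was lost without WT sample 1 (-0.090), WT sample 2 (-0.098), cKO sample 1 (-0.10) or cKO sample 3 (-0.095), and also when samples were scaled to equal totals (-0.056; adjusted p 0.259). The 3′ end of Tsc2 overlaps the gene Pkd1 on the opposite strand over 693 bases, which hold exon sequence of Tsc2. Exons of Pkd1 were not compared with those of Tsc2, and the strand setting of the counting is not given in the sources used here. Pkd1 was lower too, at a log2 fold change of -0.17 (adjusted p 0.0301, limma), and reads of the genes in the shared stretch cannot be told apart.

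Mtor encodes the kinase of both mTOR complexes and lies at chr4:148448611-148557683 (plus strand). Mtor reached 4070, 4016 and 4166 normalized counts in WT compared with 3879, 3868 and 4122 in cKO. WT and cKO overlapped, since cKO sample 3 lay inside the WT range. The log2 difference was -0.046 (95% confidence interval -0.13 to 0.038, adjusted p 0.412, limma). With the authors' size factors, this interval spans a change of -8.64 to 2.66%, and it does not cover the choice of scaling. The sign of the Mtor difference flipped to 0.0033 with equal totals. The difference was -0.076 without cKO sample 3 and -0.081 with the correction for GC content and length, in no case called.

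Rptor lies at chr11:119602905-119899576 (plus strand). The WT values of Rptor were 4952, 5081 and 5054 normalized counts, and the cKO values were 5368, 5021 and 5082. The cKO sample 1 stood above the rest, cKO sample 3 was level with the highest WT sample and cKO sample 2 lay within the WT range. The log2 difference was 0.036 (95% confidence interval -0.044 to 0.11; adjusted p 0.512, limma). It was 0.0064 without cKO sample 1, 0.055 without cKO sample 2, 0.0036 with the correction for GC content and length and 0.085 with equal totals, in no case called. An exon of Rptor overlaps the antisense gene Rptoros, which is not in the table.

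Rictor lies at chr15:6708379-6800401 (plus strand). WT samples gave 8753, 8732 and 8764 normalized counts for Rictor, against 9490, 8941 and 9271 in cKO. The WT samples were nearly equal and all cKO samples lay above them. The log2 difference of 0.077 (SE 0.0340) did not pass the test, with an adjusted p of 0.0773 by limma. It did pass without cKO sample 2 (0.10; adjusted p 0.0359), with equal totals (0.13; adjusted p 0.00455) and with a replicate block and a correction for GC content and length together (0.081; adjusted p 0.0447).

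**Figure D2:**
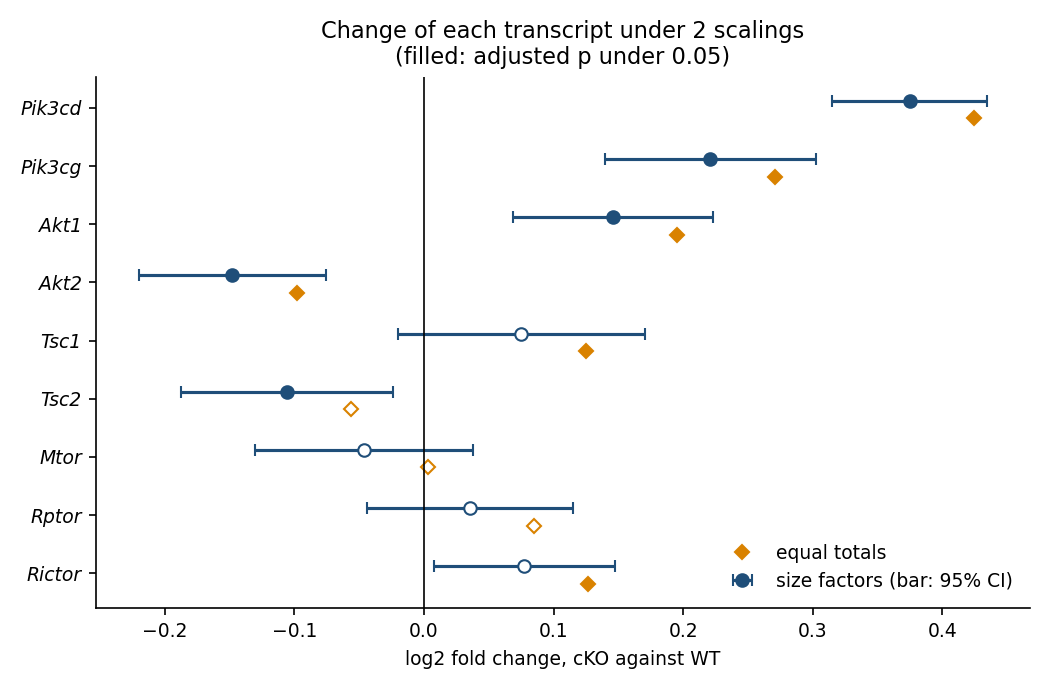
Log2 fold change of each gene in cKO against WT (horizontal axis), with the authors' size factors (circles, bars are 95% confidence intervals) and after scaling to equal totals (diamonds). Filled symbols have an adjusted p under 0.05 by limma. Pik3cd, Pik3cg and Akt1 are higher and Akt2 is lower under both scalings, whereas the calls of Tsc1, Tsc2 and Rictor differ between them and Mtor sits near 0.

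Scaling mattered for the genes with the smallest differences. The normalized counts of all listed genes had a smaller sum in every cKO sample (63610400 to 64941500) than in every WT sample (66099600 to 66657900), and scaling to equal totals shifted the median of all genes to 0.051 on the log2 scale. With equal totals, 5 of the 9 genes were called higher and 1 lower, against 3 and 2 with size factors. Over all genes, size factors gave 2576 higher and 2731 lower calls, and equal totals 3487 and 2016. Pik3cd, Pik3cg, Akt1 and Akt2 were called with the same sign under each of the 15 alternative settings, and Mtor and Rptor under none of them.

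**Figure D3:**
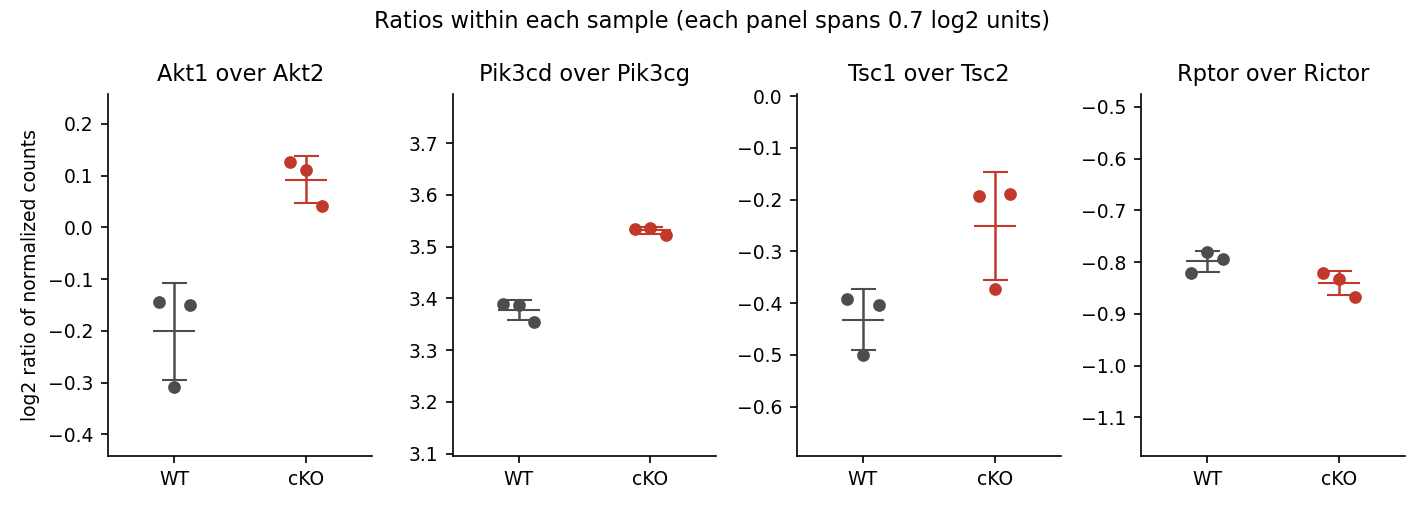
Log2 ratio of the normalized counts of paired genes within each sample, for 3 WT and 3 cKO samples; points are samples in the order 1 to 3, bars are means and whiskers SD, and every panel spans the same range of log2 units. The ratios of Akt1 to Akt2, Pik3cd to Pik3cg and Tsc1 to Tsc2 are higher in all cKO samples, and that of Rptor to Rictor is slightly lower.

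Ratios of the other pairs were also taken within samples. The log2 ratio of Pik3cd to Pik3cg was 3.38 ± 0.0194 in WT and 3.53 ± 0.0071 in cKO (SD, n = 3 each), a difference of 0.15. That of Tsc1 to Tsc2 went from -0.43 ± 0.0589 to -0.25 ± 0.104, a difference of 0.18, and that of Rptor to Rictor from -0.80 ± 0.0206 to -0.84 ± 0.0238, a difference of -0.042. None of these ratios overlapped between genotypes, and with the Akt ratio all 4 had an exact two-sided permutation p of 0.1, which is 0.1 after adjustment over the 4. The Rptor and Rictor groups came closest to touching, at -0.821 in WT sample 1 and -0.822 in cKO sample 1.

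Levels of different genes were compared per length, as counts per kb of merged exons scaled to a sum of 1000000 in each sample. In WT, Pik3cd was highest at 288 ± 5.97, followed by Akt1 at 118 ± 6.89 and Akt2 at 77.7 ± 1.17 (SD, n = 3 each). The other genes lay far lower and close together, from Rictor at 24.6 ± 0.324 through Tsc2, Pik3cg, Mtor and Rptor to Tsc1 at 13.2 ± 0.667. In WT no 2 neighbours in this order overlapped between samples. In cKO, Pik3cd was at 390 ± 8.63 and Akt1 at 136 ± 3.23, Pik3cg passed Tsc2 in the order, and Rictor overlapped with Pik3cg and Mtor with Rptor. The order of the lower 6 genes depends on the length used. With the representative transcript in place of merged exons, Rptor moved from the eighth place to the sixth in WT and to the fifth in cKO, and the top 4 kept their places.

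Within the class I catalytic subunits, per length, Pik3cd made up 79.4 to 79.6% in WT and 82.4 to 82.8% in cKO, and Pik3cg 5.63 to 5.76% and 5.29 to 5.32%. The share of Pik3cg was thus lower in all cKO samples even though its level was higher. Pik3cb, the p110β gene, had 9.53 to 9.87% in WT and 7.19 to 7.49% in cKO. These shares were chosen after the values were seen.

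**Figure D4:**
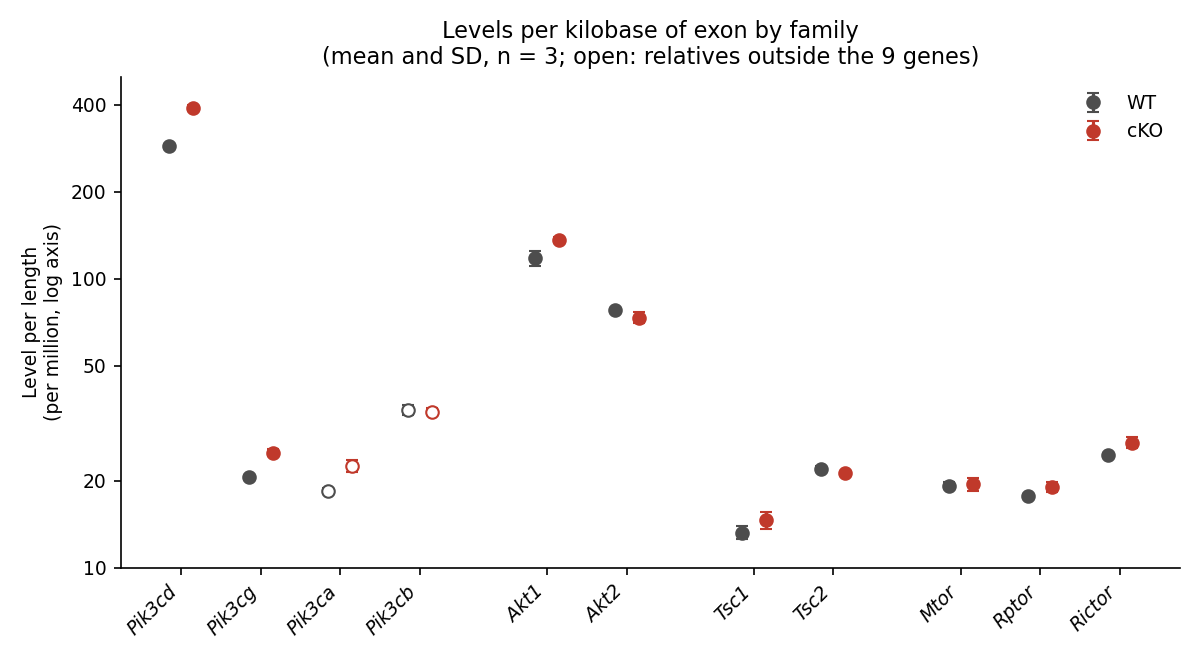
Level per kb of merged exons, scaled to a sum of 1000000 per sample (log axis), for the 9 genes (filled) and their relatives Pik3ca and Pik3cb (open) in WT and cKO; points are means and whiskers SD, n = 3. Pik3cd stands above all others, at 288 in WT and 390 in cKO, followed by Akt1 and Akt2.

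The genes most like each of the 9 over the 6 samples were found by the root mean square difference of log2 values centred on the WT mean. For Pik3cd these were Reep4 (0.0171) and Bcl9l (0.0182), for Pik3cg Sh2b1 (0.00595) and Zw10 (0.0133), for Akt1 Mob3a (0.0146) and Tomm22 (0.0186), and for Akt2 Stk26 (0.0140) and Rnf125 (0.0157). For Tsc2 they were Xab2 and Ncoa4, for Tsc1 Baz2a and Rnf169, for Rictor Appl2 and Rfwd3, for Rptor Polg and Nr4a2, and for Mtor Osgin1 and Anapc7. None of the 9 was among the nearest of another.

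The rest of the pathway was taken from 12 lists of 122 genes, of which 116 were in the table (all but Prkaa2, Irs1, Gab1, Ddit4l, Castor1 and Castor2). Of the 116, 63 were called, 33 higher and 30 lower, which is 54.3%, and their median log2 fold change was -0.015. With equal totals the split was 42 higher and 21 lower. Lists are described by their counts, beside 36.6% of all genes called and 56.8% of genes at least as abundant as the lowest of the 9.

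Among the remaining class I PI3K subunits, 3 of 7 rose and 1 fell, and with equal totals 4 rose and 1 fell. Both regulatory partners of p110γ rose together with Pik3cg: Pik3r5, which encodes p101, from 20697 ± 344 to 29179 ± 483 normalized counts, and Pik3r6, which encodes p84, from 62.5 ± 17.0 to 161 ± 18.0 (SD, n = 3 each). Pik3r5 rose by 0.50 on the log2 scale (adjusted p 5.76e-13) and Pik3r6 by 1.37 (adjusted p 1.26e-05, limma). Groups did not overlap for either gene, although Pik3r6 stayed scarce, at 1.72 CPM on average. Pik3r2, which encodes the p85β regulatory subunit of p110α, p110β and p110δ, fell by 0.27 (adjusted p 0.00320, limma). The predominant p85 gene Pik3r1 was not called, at a log2 difference of 0.039 (95% confidence interval -0.024 to 0.10). With equal totals Pik3r1 was called higher, at 0.089. Pik3ca rose by 0.21 (adjusted p 0.000156, limma). Pik3r1 and Pik3ca were named after their values were seen.

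Of the 6 PI3K adaptors in the table, 3 rose and 2 fell, and with equal totals 3 rose and 1 fell. Gab2, a scaffold that recruits p85, fell by 0.57 on the log2 scale, Irs2, a scaffold of insulin and cytokine receptors, rose by 0.46, and Pik3ip1, an inhibitor of PI3K at the membrane, rose by 0.36. Hcst encodes DAP10, the adaptor through which NKG2D reaches PI3K, and fell by 0.15 (adjusted p 0.00683, limma), but its groups overlapped and the call was lost with equal totals (adjusted p 0.0622) and without WT sample 2 or cKO sample 3. Of 5 phosphoinositide phosphatases, only Inpp5d, which encodes SHIP1, was called, and it rose by 0.14 (adjusted p 0.00132, limma), while 2 of the 5 rose with equal totals.

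Pdpk1, which encodes the AKT-activating kinase PDK1, had a log2 difference of 0.042 and was not called (adjusted p 0.397, limma). With equal totals Pdpk1 was called higher, at 0.091. Of 10 AKT substrates, 3 rose and 2 fell, and with equal totals 4 rose and 1 fell. The FOXO factors were split, since Foxo1 rose by 0.24 and Foxo3 by 0.17, and Foxo4 fell by 0.30. Cdkn1b, the most abundant of the 10 per length, encodes the cell cycle inhibitor p27 and was not called, at 0.047. With equal totals Cdkn1b was called higher, at 0.097.

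Of 9 further subunits and assembly factors of the mTOR complexes, 5 rose and 0 fell by limma, also with equal totals. With limma-voom or the correction for GC content and length 4 rose and 0 fell, and with limma on the size-factor values 0 were lower at an unadjusted p under 0.05. Their median log2 fold change was 0.20. Prr5 and Prr5l encode Protor subunits that bind rictor within mTORC2, and they rose by 0.51 and 0.24 on the log2 scale (adjusted p 1.91e-08 and 6.36e-05, limma). Prr5 reached 1484, 1473 and 1617 normalized counts in WT compared with 2173, 2121 and 2239 in cKO. The remaining calls were the co-chaperone genes Tti2 (0.23), Tti1 (0.20) and Telo2 (0.20), whose products form a complex that stabilizes mTOR and related kinases. Tti2 lost its call without WT sample 2 or cKO sample 2, and Telo2 with limma-voom, with the correction for GC content and length and without WT sample 1, cKO sample 2 or cKO sample 3; Tti1 and Telo2 were named after their values were seen.

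Of 4 genes around TSC and RHEB, Rheb, the direct activator of mTORC1, fell by 0.24 on the log2 scale (adjusted p 1.63e-05, limma), from 5329 ± 42.7 to 4506 ± 169 normalized counts (SD, n = 3 each). Its 3 cKO samples lay under all WT samples, and the call held under every setting. Ddit4, which encodes the stress-induced mTORC1 inhibitor REDD1, rose by 0.11 with overlapping groups (adjusted p 0.0249, limma) and lost its call without WT sample 1 or cKO sample 1.

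Nutrient sensing had the most genes, 27, of which 4 rose and 8 fell, and with equal totals 6 rose and 6 fell. Rraga, a Rag GTPase that brings mTORC1 to the lysosome, rose by 0.35 and Wdr24, a GATOR2 subunit, by 0.30. Nprl3, a subunit of the inhibitory GATOR1, fell by 0.33 and Lamtor2, of the Ragulator anchor, by 0.22. Other subunits of these complexes went both ways. Nprl2 of GATOR1 rose by 0.18 and Lamtor3 of Ragulator by 0.21, whereas Lamtor1 and Lamtor5 of Ragulator fell by 0.22 and 0.14. Nprl2 lost its call without WT sample 1 or cKO sample 1, and Lamtor5 with equal totals among other settings. Nprl2, Lamtor1, Lamtor3 and Lamtor5 were named after their values were seen. Of 8 genes of LKB1 and AMPK, which restrain mTORC1 when energy is short, 1 rose and 3 fell, and with equal totals 3 rose and 1 fell. Prkab2, an AMPK regulatory subunit, fell by 0.53, Strada by 0.17 and Prkag1 by 0.16, and Stk11, which encodes LKB1, rose by 0.15. Strada and Prkag1 lost their calls with equal totals, Strada also without cKO sample 2 and Prkag1 without cKO sample 3.

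Among 17 targets of the mTOR kinases, 5 rose and 3 fell, whereas 6 rose and 1 fell with equal totals and 5 rose and 1 fell with the correction for GC content and length. Ulk1, which starts autophagy and is inhibited by mTORC1, fell by 0.44 on the log2 scale, Eif4ebp2, a repressor of cap-dependent translation, rose by 0.40, and Sgk1, a kinase activated by mTORC2, rose by 0.38. Rps6, the ribosomal protein phosphorylated by S6 kinase and the most abundant of the list, fell by 0.10 (adjusted p 0.0131, limma), a call lost with equal totals, with the correction for GC content and length and without WT sample 2 or cKO sample 1.

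Of 11 transcripts known to depend on mTORC1, 2 rose and 6 fell, the same split with equal totals, and the median log2 fold change was -0.15. Srebf2 and Srebf1, the transcription factors of sterol and fatty acid synthesis, fell by 0.30 and 0.29 (adjusted p 2.51e-07 and 2.32e-07, limma). The WT values of Srebf1 were 12372, 12094 and 13054 normalized counts, and the cKO values were 10453, 10046 and 10258. Srebf2 had 6489, 6359 and 6382 in WT and 5278, 5168 and 5225 in cKO, again without overlap. The glutamine transporter gene Slc1a5 went the other way and rose by 0.34 (adjusted p 6.62e-09, limma), and Slc3a2, the most abundant of the list per length, was not called, at -0.014.

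All 8 transcripts known as targets of FOXO factors were called, 4 higher and 4 lower, and with equal totals 4 higher and 3 lower. S1pr1, the receptor that guides lymphocyte exit from tissue, rose by 1.32 on the log2 scale (adjusted p 3.24e-18, limma), with 2437, 2362 and 2228 normalized counts in WT against 5736, 6020 and 5792 in cKO. Klf2, which encodes a transcription factor of quiescence and trafficking, rose by 0.20 and Il7r by 0.52, whereas Bcl6 fell by 0.57. B cells also express S1pr1 and Klf2, and their part in these differences was not tested.

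**Figure D5:**
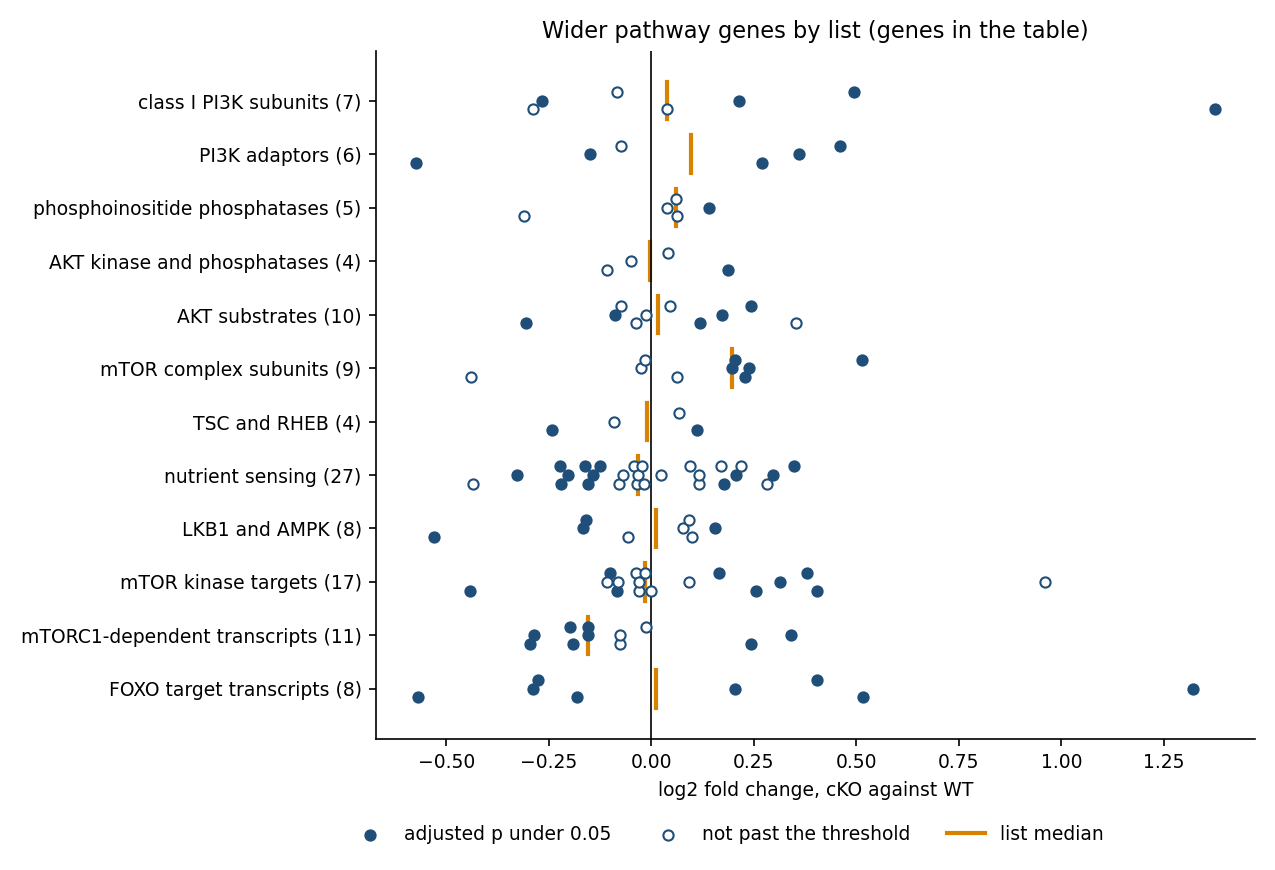
Log2 fold change in cKO against WT (horizontal axis) of the 116 wider pathway genes in the table, by list with the number of genes in parentheses. Filled points have an adjusted p under 0.05 by limma, and vertical bars are list medians. The points of most lists lie on both sides of 0, whereas the 5 called mTOR complex subunits are all higher and 6 of 8 called mTORC1-dependent transcripts are lower.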

How the data were processed

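The mRNA-seq data cover NK cells of the spleen, in 3 samples for each of WT and cKO, as the sample labels name them. Per the methods, reads were mapped to GRCm38 by Hisat2 and summed over genes by featureCounts, and DESeq2 was the authors' test. What the authors deposited for each of the 6 samples is a signal: read counts after division by the size factor of that sample, called normalized counts here. The deposited table also holds the authors' mean over samples, log2 fold changes with standard errors, Wald statistics as a score, p-values and adjusted p-values, none of which was used.

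Reads per sample followed from the worth of 1 read in each column and cover the listed genes only. Pairs of samples of the same genotype differed beyond counting noise (chi-square over degrees of freedom 5.50 to 8.00). The genotype was fitted to log2(value + 1) by limma 3.58.1 (R 4.3.3) with a variance trend. A filter of 1 normalized count in 3 or more samples left out no gene. Tests were two-sided, and Benjamini-Hochberg adjustment covered all 14490 genes. Intervals are at 95% and use moderated standard errors. Single values and ratios were compared by the exact permutation test over 20 assignments. Positions, lengths and transcripts came from GENCODE M21, which matched 97.3% of the genes. CPM is a share of the listed genes' total.

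The alternatives were a pseudocount of 0.1, a filter of 1 CPM in 3 samples, no filter, equal totals, TMM factors, limma-voom, a block for the replicate number, a spline correction for GC content and length without and with that block, and each of the 6 samples left out. The level by representative transcript, the comparison with genes of like abundance and the shares and sums within families were added after the data were seen. The steps were tested on simulated data. The 9 genes and the lists were chosen with earlier results of these data known. From each list, up to 3 genes with the largest called change and a mean of at least 1 CPM were named, with the most abundant per length, and for each of the 9 genes the 2 genes most like it. A gene that this rule names is not reported here.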

Additional observations from a re-analysis of the deposited data

How the results depend on the processing

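Scaling to equal totals reversed the sign of Mtor (log2 fold change 0.0033), brought Rictor (0.13) and Tsc1 (0.12) past the threshold and took Tsc2 (-0.056) back under it, so that 5 of the 9 genes were called higher and 1 lower. Rictor also passed with the replicate block and the correction for GC content and length (0.081). With single samples left out, Rictor ranged from 0.057 to 0.10 and Tsc2 from -0.13 to -0.090, and 1 to 2 genes were called lower. The causes were not tested. Akt1, Akt2, Pik3cd and Pik3cg kept sign and call in all 15 settings run. The within-sample ratios kept their sign with a pseudocount of 0.1 and with each of the 6 samples left out. They were not run with the correction for GC content and length. Same-numbered WT and cKO samples correlated at -0.024, 0.12 and 0.045 in their deviations, and not every sample correlated best with its own number, so the numbers were not taken to pair the samples. With the replicate block, 5 of the 9 genes and 5543 of all genes were called, against 5 and 5307 without it. The deposited columns are counts divided by size factors. Whole reads follow from them, but the planned count tests on those reads, by edgeR and DESeq2, were not run here. Limits set by depth were not tested.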
